A study of Mus musculus with 2 samples.

Results

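The myogenic bHLH factors, the Id proteins and the E proteins are transcription regulators that share the helix-loop-helix fold, through which they pair with each other. Their transcripts were compared between Foxj3 knockout and wild-type mouse skeletal myoblasts. The 10 member genes were chosen by name and fall into 3 classes: the myogenic factors (Myod1, Myf5, Myog, Myf6), the Id inhibitors (Id1, Id2, Id3) and the E proteins (Tcf3, Tcf12, Tcf4). They make up 10 of the 18193 genes named on the array and are covered by 24 of its 45037 probe sets.

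A Foxj3 KO sample and a Foxj3 WT sample were each hybridised to 1 Affymetrix mouse array. Foxj3 encodes a forkhead transcription factor. All cells were skeletal myoblasts, which divide and later fuse into muscle fibres, at passage 3, cultured in medium with 20% serum and taken at 80% confluency. The sources used here do not say which part of Foxj3 was deleted, whether in muscle alone, from which strain and age the cells came, or how many animals stood behind each culture.

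A myogenic factor binds DNA as a pair with an E protein, at short sites called E-boxes, and such pairs switch on the genes of differentiated muscle. Id proteins have the pairing surface and lack the DNA-binding part, so they hold E proteins in pairs that cannot bind. In muscle precursors Myf5 and Myod1 act in commitment to the lineage, Myog acts later, when myoblasts leave the cell cycle and differentiate, and Myf6 acts mainly in mature fibres.

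Each deposited value is a signal intensity, on a linear scale, for a probe set, a group of short oligonucleotides read together. A single array stood for each group, so no test could be run, and every difference describes these 2 arrays. Signals under a detection floor of 47.04, the 40th percentile of all values of both arrays, were set to it before the log2 ratio of KO over WT was taken. A probe set counted as measured if it lay over the floor on at least 1 array, and a gene was represented by its probe set with the highest mean log2 signal. A ratio of at least 2-fold was used as a fixed size for counting. In a bulk sample, fewer cells of a type and less RNA per cell cannot be told apart.

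Facts of the arrays as a whole bear on every value. The median signal over all probe sets was 63.94 on the KO array and 62.03 on the WT array, with 60.8% of values over the floor on the KO array and 59.2% on the WT array. Of 14597 measured genes, the median log2 ratio was -0.06. Foxj3 read 77.28 on the KO array and 495.51 on the WT array by its brightest probe set (log2 ratio -2.68), 99.40 in KO and 79.74 in WT by the next, and lay under the floor on both arrays by the last, so its probe sets did not all point the way the labels do. Myoblast and satellite cell markers were measured for 11 of 12 genes, with a summed signal of 8517 on the KO array and 7050 on the WT array, but 7 of the 11 had ratios below 0 and their median log2 ratio was -0.03. The higher sum rested on Sdc4 (2148.91 in KO and 468.01 in WT) and on Myod1 itself. By its other probe set Sdc4 read 322.17 in KO and 275.96 in WT (log2 ratio 0.22). Fibroblast markers were measured for 7 of 10 genes, with 1847 in KO and 1390 in WT, endothelial markers for 3 of 6, with 259 in KO and 184 in WT, and macrophage and leukocyte markers for 4 of 8, with 585 in KO and 690 in WT. Of 4 Schwann and neural markers on the array all were measured, with 382 in KO and 916 in WT. This sum was carried by Erbb3 (46.94 in KO and 628.48 in WT), while the other 3 had ratios above 0 and the median was 0.15. The KO value of Erbb3 lay just under the floor. Its other probe set read 64.45 in KO and 53.74 in WT (log2 ratio 0.26). Of 5 adipogenic markers 3 were measured, with 354 in KO and 641 in WT, a gap that came mostly from Fabp4 (113.25 in KO and 412.18 in WT), whose other 3 probe sets were under the floor on both arrays. Pecam1, Ptprc, Cd68, Thy1, Pdgfrb, Lum and Adipoq, markers of endothelium, leukocytes, fibroblasts and fat cells, were under the floor on both arrays. Other markers of the same lists lay over it on both, such as Kdr (101.27 in KO and 110.20 in WT) and Csf1r (276.49 in KO and 171.16 in WT). So did Col1a2 (701.07 in KO and 423.24 in WT) and Cebpa (206.82 in KO and 152.03 in WT). All these genes were picked out after their values were seen. Ratios were above 0 for 6 of the 7 measured fibroblast markers and below 0 for 3 of the 4 macrophage and leukocyte markers. The part of the markers of other cell types in the results below was not tested. Myod1 and Myf5 are themselves among the myoblast markers.

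Of the 10 member genes 9 were measured, and 1 of these was at least 2-fold higher in KO myoblasts and 1 at least 2-fold lower. Over all measured genes 3.73% passed 2-fold upward and 6.72% downward, and 1 of 9 in each direction is no result about the members as a group. The genes concerned were Myod1, which was higher, and Myog, which was lower, both in the class of myogenic factors. Across the 24 probe sets 21 were measured, of which 19 lay over the floor on both arrays. Of the 21, 14 had a positive log2 ratio, 4 passed 2-fold upward and 1 downward. The shares over all measured probe sets were 5.44% upward and 6.29% downward, and their median log2 ratio was -0.006.

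**Figure D1:**
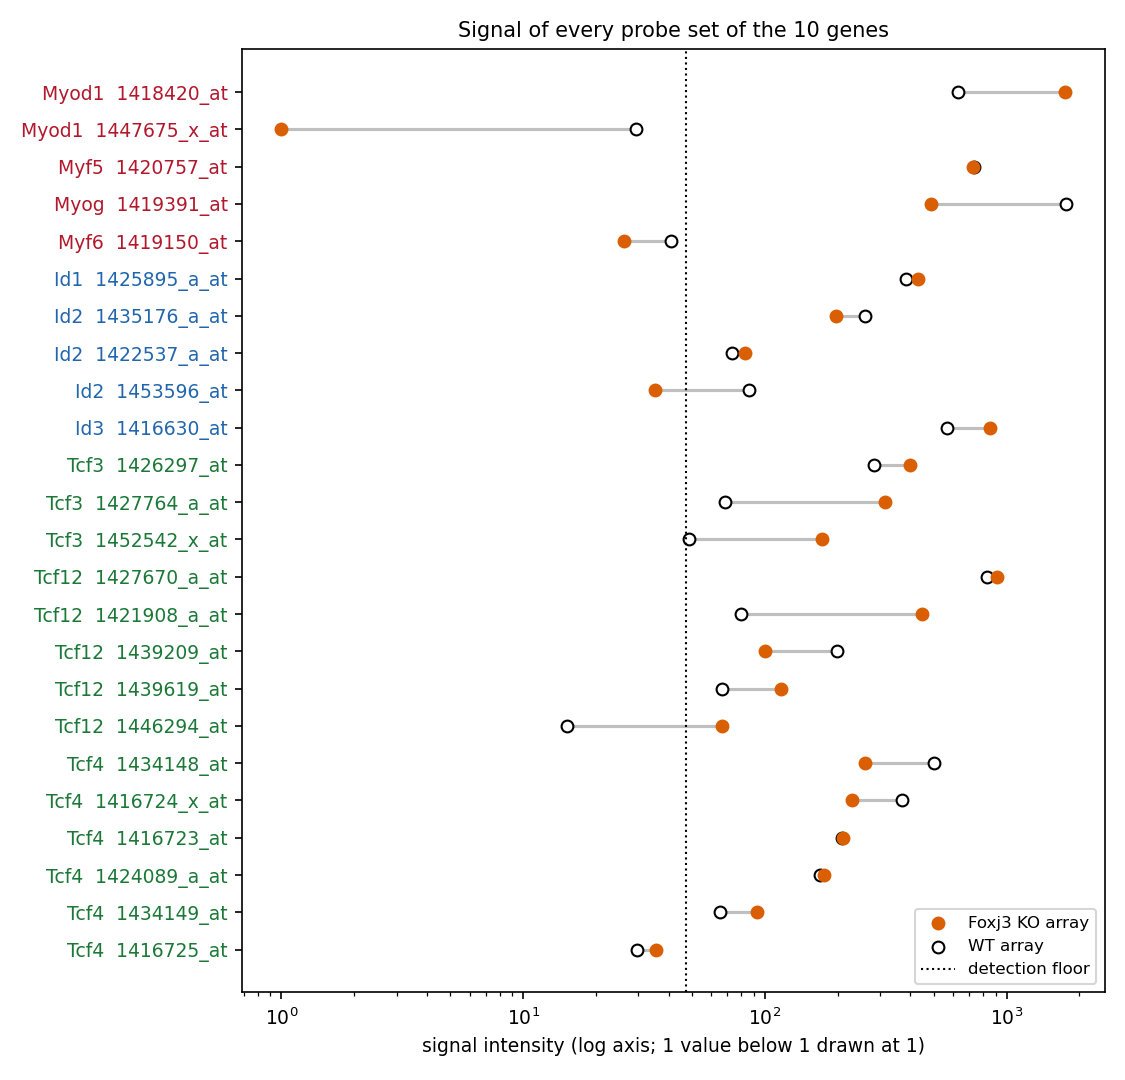
Signal of each of the 24 probe sets of the 10 genes on the KO array (filled) and the WT array (open), on a log axis, with names coloured by class (red for myogenic factors, blue for Id inhibitors, green for E proteins); the dotted line is the detection floor of 47.04. Myod1 lies to the right on the KO array (1750.95, against 631.27 in WT), Myog to the left (487.79, against 1753.96 in WT), and Myf5 is level (723.84 in KO, against 731.38 in WT).

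Myod1, which encodes MyoD, a determination factor of the muscle lineage, read 1750.95 on the KO array and 631.27 on the WT array by the probe set 1418420_at. The signal was 2.77-fold higher in KO myoblasts (log2 ratio 1.47), and 155 of the 14597 measured genes, 1.06%, had a higher ratio. The only other probe set, 1447675_x_at, read 0.49 in KO and 29.34 in WT, under the floor on both arrays, and gives no second reading of the gene. Names ending in _x_at mark probe sets with oligonucleotides that can also match other transcripts. When the probe set under the floor is counted as a ratio of 0, the mean for Myod1 comes to a log2 ratio of 0.74, under 2-fold.

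Myog, which encodes myogenin, a factor that drives the onset of differentiation, read 487.79 on the KO array and 1753.96 on the WT array by its single probe set, 1419391_at. The signal was 3.60-fold lower in KO myoblasts (log2 ratio -1.85). Of the measured genes 122, or 0.836%, had a lower ratio. Myog and Myod1 thus lay near opposite ends of all measured genes. The log2 ratio of Myod1 exceeded that of Myog by 3.32, a 9.97-fold difference between the ratios, and no linear scaling of a whole array moves this difference. The pair was chosen with earlier results of these data known. It holds the highest and the lowest ratio among the measured members, so the gap is the widest among them.

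Myf5, the other determination factor of the class, was level, at 723.84 on the KO array and 731.38 on the WT array (1420757_at, log2 ratio -0.01). Its ratio stood in the middle of all measured genes, with 52.7% of them lower. It had 1 probe set, so no other reading was at hand. Myf6, the factor of mature fibres, read 26.10 on the KO array and 40.85 on the WT array (1419150_at), under the floor on both, and no ratio was taken. The members of this class therefore had 3 measured log2 ratios, 1.47, -0.01 and -1.85, which share no direction, and their median was -0.01 beside -0.06 over all measured genes.

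Promoter sequences are shown for Myog and Myf5, since the genes belong to the same class and differed in their ratios. They are the 250 bases before the annotated transcription start, 5′ to 3′ on the gene's own strand, from RefSeq on GRCm38.p6, at chr1:134289754-134290003 (plus strand) for Myog and chr10:107486135-107486384 (minus strand) for Myf5. Capitals mark E-boxes, CANNTG, whose form is the same on both strands, and CTANNNNTA on either strand, a loose form of the site bound by MEF2 factors.
Myog: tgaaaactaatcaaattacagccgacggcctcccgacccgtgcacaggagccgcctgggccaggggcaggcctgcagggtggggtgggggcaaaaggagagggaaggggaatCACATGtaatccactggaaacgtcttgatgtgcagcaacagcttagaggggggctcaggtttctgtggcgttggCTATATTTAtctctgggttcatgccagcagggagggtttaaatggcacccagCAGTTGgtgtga
Myf5: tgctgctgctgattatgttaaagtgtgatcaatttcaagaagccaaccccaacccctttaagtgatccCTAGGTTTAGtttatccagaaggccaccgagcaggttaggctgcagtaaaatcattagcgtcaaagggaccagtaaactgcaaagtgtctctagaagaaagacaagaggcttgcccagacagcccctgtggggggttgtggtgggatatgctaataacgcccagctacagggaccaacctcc

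The Myog window holds 2 E-boxes, CACATG at bases 138 to 133 before the start and CAGTTG at bases 12 to 7, and CTATATTTA at bases 64 to 56. The Myf5 window holds no E-box and a pair of overlapping matches to the loose MEF2 form, read on opposite strands, between bases 182 and 173. Such letters are common. Of 32851 promoter windows of this length 66.2% held at least 1 E-box, 31.8% at least 2, and 19.0% the loose MEF2 form, so a match describes the letters and not a bound site. Windows of 6 of the 10 member genes were used, and Myod1, Myf6, Id1 and Tcf4 had none. Member entries on a chromosome set aside in the design were left out. That rule covers a single chromosome and was not checked as the reason for each gap. Those of Id2 and Tcf3 held 1 E-box each, that of Id3 none, and of 3 windows of Tcf12 the first and second held 1 each and the third none.

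The 3 Id inhibitor genes were under 2-fold by their brightest probe sets. Id3, a target of BMP signalling and the Id gene with the largest ratio here, read 852.85 on the KO array and 565.93 on the WT array by its single probe set, 1416630_at (1.51-fold higher in KO myoblasts, log2 ratio 0.59). Id1, another BMP target, read 431.01 on the KO array and 384.97 on the WT array (1425895_a_at, log2 ratio 0.16). A ratio above that of Id3 was found for 12.6% of measured genes and above that of Id1 for 34.5%, so neither stood at an end of the range.

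Id2, an inhibitor of the same kind, had 3 probe sets that did not share a direction. The brightest, 1435176_a_at, read 197.28 on the KO array and 259.88 on the WT array (log2 ratio -0.40). The next, 1422537_a_at, read 82.79 in KO and 73.42 in WT (0.17), and 1453596_at read 34.98 in KO and 85.94 in WT. The KO value of this last probe set lay below the floor, so its signal was at least 1.83-fold lower. The median over the 3 Id genes was 0.16. The 4 Id probe sets that exceeded the floor in KO and in WT were under 2-fold. For 1453596_at the floor leaves only a bound, and with the floor at the 20th percentile its log2 ratio was -1.30, past 2-fold. Id4, a relative of the Id genes that is not among the 10 genes and was picked out after its values were seen, read 53.12 on the KO array and 76.94 on the WT array by its brightest probe set, and its other 2 probe sets were under the floor on both arrays.

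**Figure D2:**
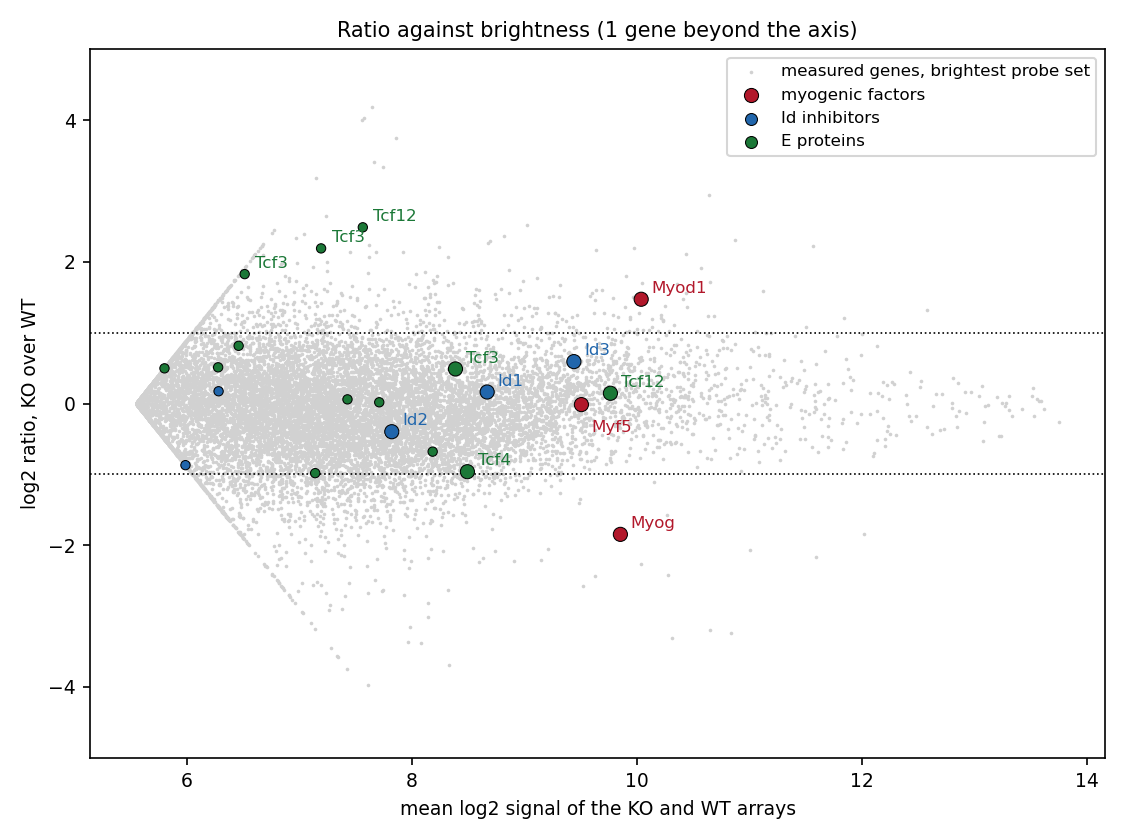
Log2 ratio of KO over WT against the mean log2 signal of both arrays for 14597 measured genes (grey, 1 of them beyond the axis) and for the 21 measured probe sets of the 10 genes (coloured by class, with large points for the brightest probe set of a gene); dotted lines mark 2-fold. Among the large points Myod1 (1.47) and Myog (-1.85) lie outside the lines, and the small points above the upper line are probe sets of Tcf3 and Tcf12.

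Probe sets of the same E protein gene differed widely, most of all those of Tcf12. Tcf3, which encodes the best-studied partner of MyoD, was higher in KO myoblasts by all 3 of its probe sets. The brightest, 1426297_at, read 396.97 on the KO array and 282.95 on the WT array, a 1.40-fold higher signal (log2 ratio 0.49). The other 2 were dimmer on the WT array and at least 2-fold higher. The probe set 1427764_a_at read 312.96 on the KO array and 68.61 on the WT array (2.19), and 1452542_x_at read 172.42 in KO and 48.61 in WT (1.83), the WT value being just over the floor. The mean log2 ratio over the 3 was 1.502, so that Tcf3 is under 2-fold by its brightest probe set and past it by the mean. The annotation ties these last 2 probe sets to the same source transcript, so they are not separate readings.

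Tcf12, which encodes HEB, an E protein of muscle and lymphocytes, had 5 measured probe sets. The brightest, 1427670_a_at, was close on both arrays, at 914.85 on the KO array and 827.26 on the WT array (log2 ratio 0.15, or -0.07 with quantile scaling). The widest gap was that of 1421908_a_at, at 448.60 in KO and 80.01 in WT, 5.61-fold higher in KO myoblasts (2.49). In the other direction 1439209_at read 100.54 on the KO array and 198.59 on the WT array (-0.98). Of the dim ones, 1439619_at read 116.99 in KO and 66.51 in WT (0.81), and 1446294_at read 66.38 in KO and 15.21 in WT, at least 1.41-fold higher. The log2 ratios of this gene thus spanned 3.47, with an SD of 1.26 over the 5 probe sets. Names ending in _a_at mark probe sets that match several transcripts of the same gene, and which transcripts of Tcf12 each of them reads was not analysed here.

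Tcf4, which encodes a further E protein and is not the Wnt pathway factor once known by the same name, had 6 probe sets, of which 5 were measured. Its brightest, 1434148_at, read 258.40 on the KO array and 503.36 on the WT array, 1.95-fold lower in KO myoblasts (log2 ratio -0.96). This ratio is just short of 2-fold and passed it (-1.01) when both arrays were set to the same median. The probe set 1416724_x_at was lower too, at 230.19 on the KO array and 368.47 on the WT array (-0.68). The readings of 1416723_at, at 210.91 in KO and 208.33 in WT (0.02), and of 1424089_a_at, at 175.94 in KO and 168.90 in WT (0.06), were level, and 1434149_at read 92.82 in KO and 65.13 in WT (0.51). The last, 1416725_at, read 35.55 on the KO array and 29.51 on the WT array, under the floor on both. Over its 5 measured probe sets the mean log2 ratio was -0.21, with an SD of 0.60.

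Over the 13 measured probe sets of the E proteins 10 had a positive log2 ratio, 3 passed 2-fold upward and 0 downward, beside 5.44% upward and 6.29% downward of all measured probe sets. The median log2 ratio over all measured probe sets was -0.006. Of the 3, the 2 of Tcf3 are not separate readings. The upward count depended on the floor, since 1446294_at passed 2-fold with the floor at the 20th percentile (1.40) and 1452542_x_at came just short at the 60th (0.997). By the brightest probe sets, 0 of the 3 genes reached 2-fold and their log2 ratios were 0.49, 0.15 and -0.96, with a median of 0.15 that became -0.07 with quantile scaling. No direction can be given for the class.

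The spread of readings can be gauged here only from probe sets of the same gene, which leaves out differences between cultures. Within 4752 genes that had several probe sets above the floor on the KO and WT arrays, log2 ratios had a pooled SD of 0.66 around their gene's mean. The SD was 0.59 among probe sets of at least 100 on both arrays, 0.53 at 200 and 0.44 at 400, so brighter readings differed less. Myod1 and Myog read over 400 on both arrays, and their log2 ratios of 1.47 and -1.85 are each larger in size than the SD of 0.44 for such probe sets. The same holds for Id3 (0.59), which also read over 400 on both arrays. By its brightest probe set Tcf4 (-0.96) exceeds the SD of 0.53 at 200, but its other probe sets did not share a direction. Those of Myf5, Id1, Id2, Tcf3 and Tcf12 by their brightest probe sets are under the SD of their brightness range. The probe sets of Tcf3 and Tcf12 that passed 2-fold read under 100 on the WT array.

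Many genes known as targets of the myogenic factors were lower in KO myoblasts. Of 27 listed genes, all measured, 14 were at least 2-fold lower, or 51.9% beside 6.72% of all measured genes, 13 were under 2-fold and 0 were at least 2-fold higher by their brightest probe sets. The median log2 ratio was -1.58, beside -0.06 over all measured genes. The list was drawn up with muscle genes already known to be lower on these arrays, so it is no independent evidence of that direction. Mymx, which encodes a micropeptide of myoblast fusion, read 49.44 on the KO array and 775.76 on the WT array (log2 ratio -3.97). The embryonic myosin heavy chain gene Myh3 read 404.45 in KO and 4001.18 in WT (-3.31), and Myl4, a myosin light chain gene, 532.29 in KO and 4866.52 in WT (-3.19). The second probe set of Myl4 gave -0.29.

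Some targets did not share this direction. The 4 with ratios above 0 by their brightest probe sets, named after their values were seen, were the acetylcholine receptor subunits Chrna1, Chrnb1 and Chrnd and the Notch ligand Dll1. Chrnd read 239.47 on the KO array and 200.10 on the WT array (log2 ratio 0.26), and Dll1 190.48 in KO and 175.47 in WT (0.12). Chrna1 and Chrnb1 had log2 ratios of 0.04 and 0.34. Each of the 4 was under 2-fold. Probe sets of 4 further targets, Chrng, Des, Fgfr4 and Rbm24, also picked out after their values were seen, disagreed in direction. Chrng, another acetylcholine receptor subunit gene, read 503.18 in KO and 877.35 in WT by its brightest probe set (-0.80), while a second read 290.09 in KO and 34.20 in WT, at least 6.17-fold higher. Des, which encodes the muscle intermediate filament protein desmin, had log2 ratios of -0.89 by its brightest probe set and 0.82 by the other. The fibroblast growth factor receptor gene Fgfr4 (-0.94 by its brightest probe set) and Rbm24 (-0.84), which encodes an RNA-binding protein, had dimmer ones up to 0.25 and 0.12. The 0.25 of Fgfr4 is a bound, since the WT value lay under the floor. A further dimmer probe set of Rbm24 was lower, at 87.35 in KO and 346.02 in WT (-1.99).

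**Figure D3:**
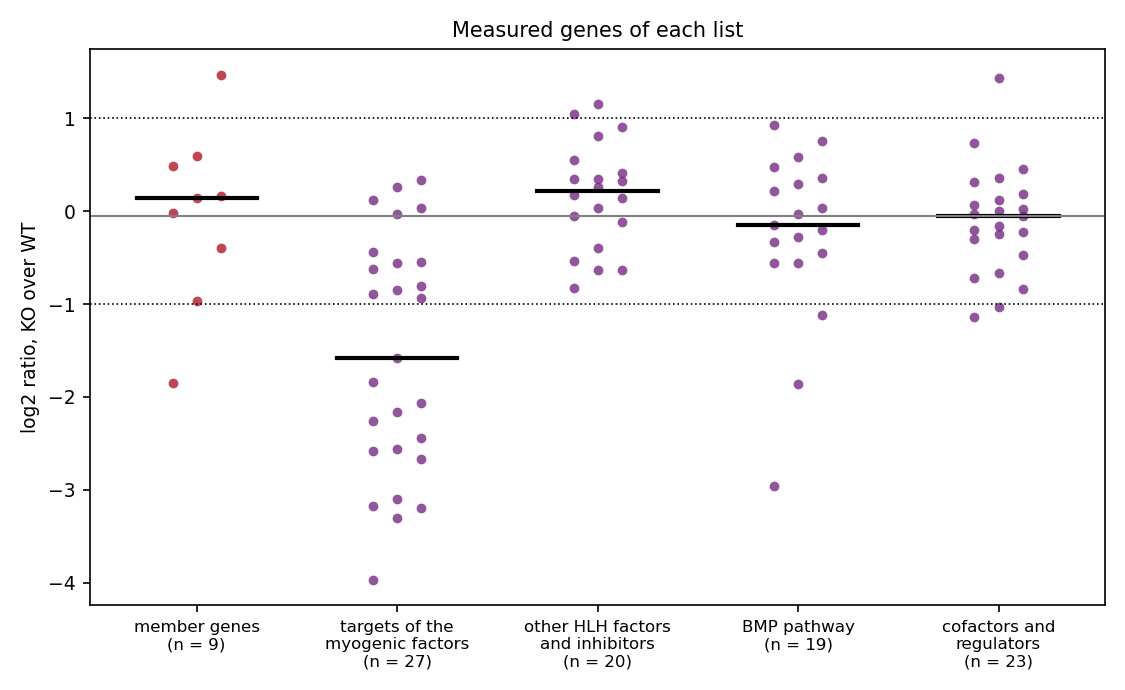
Log2 ratio of KO over WT for the brightest probe set of each measured gene among the 10 member genes and in 4 lists of related genes; black bars are medians, the grey line is the median of all measured genes (-0.06) and dotted lines mark 2-fold. The targets of the myogenic factors have the lowest median (-1.58) and the medians of the other lists lie between -0.15 and 0.22.

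Other helix-loop-helix factors and inhibitors of the myogenic factors were measured for 20 of 22 genes, with a median log2 ratio of 0.22; 2 (10%) passed 2-fold upward and 0 downward, beside 3.73% upward and 6.72% downward of all measured genes. The higher ones were Myc, a growth-promoting bHLH factor, at 533.09 on the KO array and 239.33 on the WT array (1.16), and Tcf15, a bHLH factor of the somites, at 101.06 in KO and 48.84 in WT (1.05). Each had a single probe set. Twist1, which opposes MyoD by binding E proteins, was under the floor on both arrays, at 14.46 on the KO array and 28.25 on the WT array, and was singled out after its values were seen.

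Genes of the BMP pathway, which acts upstream of the Id genes, were measured for 19 of the 23 genes on the array, with a median log2 ratio of -0.15. By their brightest probe sets 0 passed 2-fold upward and 3 (15.8%) downward, beside 3.73% upward and 6.72% downward of all measured genes. The BMP co-receptor gene Hjv read 16.67 on the KO array and 364.61 on the WT array, at least 7.75-fold lower, and at least 3.09-fold lower by its other probe set. Fst, which encodes the secreted BMP and activin antagonist follistatin, read 96.89 in KO and 351.16 in WT (log2 ratio -1.86), and its other probe set was at least 2.03-fold lower. Smad7, an inhibitory Smad gene, read 174.50 on the KO array and 378.30 on the WT array (-1.12), while its other probe set read 193.04 in KO and 147.27 in WT (0.39). Hjv and Fst are thus lower by all of their probe sets and Smad7 is not. Dimmer probe sets of other genes, picked out after their values were seen, passed 2-fold both ways. Those of Smad4 (1.94) and Bmpr1a (1.16) did so upward. Another of Bmpr1a (-2.04) and that of Rgmb (-1.16, a bound) did so downward.

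Cofactors and regulators of myogenic factor activity, 23 of them measured, had a median log2 ratio of -0.05, and its sign turned with both means over probe sets and when the median ratio of all measured genes was subtracted. Cdk4, the cyclin D kinase that restrains MyoD in dividing cells, was the single gene at least 2-fold higher, 4.35% of the list beside 3.73% of all measured genes. It read 1763.93 on the KO array and 654.57 on the WT array (1.43), and its other probe sets read 1562.21 in KO and 707.36 in WT (1.14) and 795.02 in KO and 423.59 in WT (0.91). Hdac4 and Hdac5, deacetylases that restrain muscle genes, were just past 2-fold lower, 8.70% of the list beside 6.72% of all measured genes. Of these 2 calls 1 was left with quantile or loess scaling, the floor at the 60th percentile, either mean over probe sets or the median ratio subtracted, and 0 with a pseudocount. Hdac4 read 76.93 on the KO array and 169.08 on the WT array (-1.14), with -0.34 at its other measured probe set. Hdac5 read 145.55 in KO and 298.33 in WT (-1.04) by its single probe set. Ccnd1, which encodes the partner cyclin of Cdk4 and was picked out after its values were seen, was higher by all 3 of its probe sets, with 2835.91 on the KO array and 2286.83 on the WT array by the brightest (0.31). The others gave log2 ratios of 0.63 and 1.72, so the size of the difference is not settled.

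**Figure D4:**
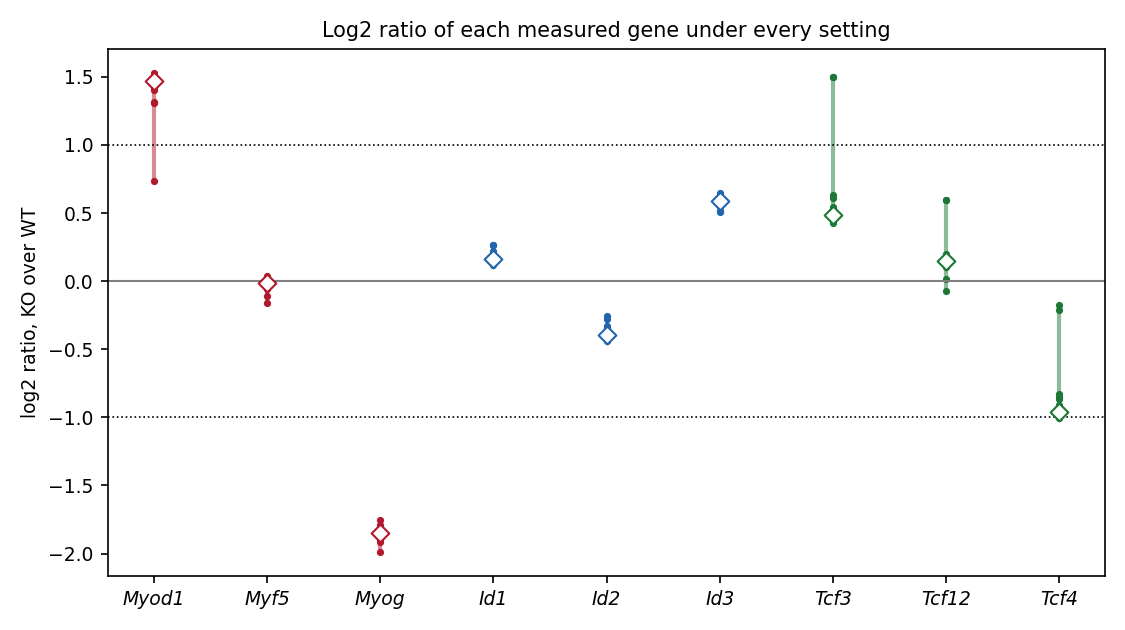
Log2 ratio of KO over WT of the 9 measured member genes as reported (diamonds) and under 10 other settings of scaling, floor and probe set choice (points, joined by a line); dotted lines mark 2-fold. Myog stayed between -1.99 and -1.75, while Myod1 (0.74 to 1.53), Tcf3 (0.43 to 1.502) and Tcf4 (-1.01 to -0.18) lie on either side of a line.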

How the data were processed

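Total RNA (10 ug) of each culture was labelled with biotin and hybridised, per the labels' protocols. The table deposited by the authors holds a signal intensity, on a linear scale, for each probe set on each array. The sources used here do not give the algorithm and scaling behind it. Trimmed means (2% off each end) were 125.528 on the KO array and 126.117 on the WT array, so values were used as deposited. Per the file headers, 40 of 42 fields of the scanner records were the same, and the arrays differed in fluidics module and scan time. All columns had a sample.

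Genes were assigned by the platform annotation, with symbols updated through a RefSeq table (GRCm38.p6): 34945 had 1 symbol, 932 several and 9160 none. Only the first kind names a gene. Ratios were computed in Python 3.11.15. The code was checked on simulated data, with changes planted in bright genes only. The simulated noise was smaller than the spread between probe sets of a gene, so dim or discordant readings were not tested. The members and all lists were chosen with earlier results of these data known. Every member was named, with Foxj3, and from each of the 4 lists up to 3 genes in each direction of at least 2-fold. Of listed symbols, those with no probe set of their own were not analysed here. Lists share genes (Cdh15, Des, Itga7 and Tcf21). Alternatives were quantile, median and loess scaling (span 0.3), other floors, a pseudocount, means over probe sets, leaving out _s_at and _x_at probe sets, and other fold sizes. Protein sequences were not used here.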

Additional observations from a re-analysis of the deposited data

How the results depend on the processing

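With 1 array per group, nothing separates differences between cultures from the effect of the knockout. Probe sets that disagree, some of them dim, limit the readings of the E proteins. The number of members at least 2-fold higher (1 as reported) was 2 at 1.5-fold (Myod1 and Id3), 0 at 3-fold and 2 with the mean over measured probe sets (Myod1 and Tcf3), an alternative chosen after seeing the data. It was 1 with the mean over all probe sets, where Tcf3 took the place of Myod1. The number at least 2-fold lower (1 as reported, Myog) was 2 at 1.5-fold and 2 with the medians of the arrays made equal, Tcf4 being added in both. The log2 ratio of Myod1 minus that of Myog (3.32) was 2.58 with the mean over all probe sets, in which the probe set of Myod1 under the floor counts as 0. Class medians ranged from -0.33 to 0.04 for the myogenic factors, 0.12 to 0.26 for the Id inhibitors and -0.07 to 0.59 for the E proteins. The -0.33 came with the floor at the 20th percentile, where Myf6 counted as measured and joined the class median. The ratios of Myod1, Myf5 and Myog did not change at that floor. The median of the targets of the myogenic factors stayed between -1.84 and -1.52, with 14 or 15 genes at least 2-fold lower under the 10 settings run. Subtracting the median ratio of all measured genes, also chosen after seeing the data, moved no count of members. Among the 4 lists, the cofactors at least 2-fold lower (2 as reported) ranged from 0 with a pseudocount to 2. The other helix-loop-helix genes at least 2-fold higher (2 as reported) ranged from 1 to 3. Of 234 values of single genes and probe sets under alternatives, 227 moved by less than the SD between probe sets of a gene, 7 moved by more and 0 called values turned sign. Genes with 1 probe set enter this count both as gene and as probe set. Other floors and other probe set choices leave their bright readings unchanged, so the count is a weak check. No paired analysis was possible because each group has 1 sample.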
